A study of Homo sapiens with 9 samples.

Results

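LNCaP cells that had been starved of androgen and then given androgen together with celastrol were compared with starved cells given only the solvents. The comparison rests on 6 of the 9 arrays of the series, taken by their labels: 3 cultures with androgen plus celastrol and 3 vehicle cultures, each labelled as a biological replicate. LNCaP is an established human prostate cancer line that keeps features of luminal cells and responds to androgen. All cultures, the controls included, were kept for 2 days in medium with 10% charcoal-stripped serum, which removes steroids. The vehicle cultures then received ethanol and DMSO for 24 h. The combined cultures received 1 nM R1881, a synthetic androgen that resists metabolism, with 1.25 µM celastrol, also for 24 h. A further group of 3 cultures received 1 nM R1881 and DMSO, and it is used here to set the combined response beside that to androgen alone. The titles of those androgen arrays give 6 h while their descriptions and treatment protocol give 24 h, so that for every difference between the combined and the androgen cultures, celastrol and a possible difference in time cannot be told apart. No culture with celastrol alone was analysed here, and all cultures are of 1 cell line at 1 dose.

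Androgen acts through the androgen receptor, a nuclear receptor that is held ready for hormone by heat shock protein chaperones and that, once bound, moves to DNA and switches on genes of the luminal secretory programme such as KLK3, which encodes prostate-specific antigen, while lowering others. Celastrol is a plant triterpenoid whose quinone methide group reacts with thiols of proteins. It is known to engage the heat shock response, the KEAP1 and NRF2 pathway of antioxidant defence, and signalling from unfolded proteins. The comparison with vehicle therefore joins the effect of an androgen and that of a thiol-reactive compound in the same cells.

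Of 12165 genes measured, 1622 were higher in the combined cultures and 1218 were lower at an adjusted p under 0.05 (limma, Benjamini-Hochberg adjustment over all genes), which is 13.3% and 10.0% of the genes. These shares are the background against which the counts in gene lists are read. The change was at least 2-fold for 369 of the higher genes and 211 of the lower ones, and at least 8-fold for 8 and 5. Fold changes below are on the log2 scale with their standard error (SE), combined minus vehicle and n = 3 arrays a group unless stated otherwise, and a value of 1 is a doubling. The median over all genes was -0.01, and the extremes were -3.31 and 6.22. The 3 arrays of 1 group all lay above the 3 of the other for 20.1% of genes in favour of the combined cultures and for 17.1% in favour of vehicle. The largest rises were those of AKR1C2 and AKR1C1, aldo-keto reductases that act on steroids and reactive carbonyls, and of HMOX1, heme oxygenase. The largest falls were those of IL1RN, an antagonist of the interleukin-1 receptor, COLEC12, a scavenger receptor, and UGT2B17, which conjugates androgens to glucuronic acid.

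**Figure D1:**
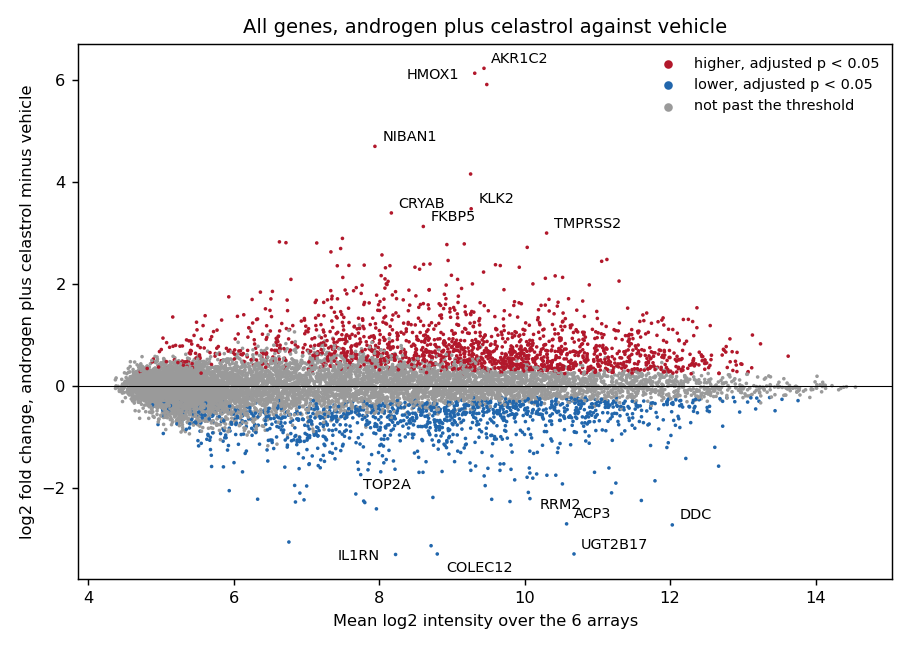
Log2 fold change of each of the 12165 genes (androgen plus celastrol minus vehicle) against its mean log2 intensity over the 6 arrays. Red and blue points are the 1622 higher and 1218 lower genes at an adjusted p under 0.05, and the largest changes reached 6.22 upward and -3.31 downward.

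The 9 arrays had median probe set intensities of 72.2 to 80.2. The third vehicle array differed most from its group. The SD of its deviations from the group mean was 0.31 (log2), and the next highest was 0.201; its upper quartile of intensity was 332, where the others had 377 to 409. Without it 1526 genes were higher and 1409 lower, and with combined array 1 left out as well 1555 and 1306. Of the calls 57.1% were upward; this share was 47.7% after quantile normalization, 50.4% after cyclic loess, 66.2% with array medians subtracted and 52% without vehicle array 3, so that the balance of rises and falls is not a stable figure. Defining markers of luminal cells were high (7 of 9 measured, group means 1273 to 15342), and their summed intensity was 32834 to 33572 on vehicle and 38329 to 40439 on combined arrays. Markers of basal cells (3 of 4 measured, group means 29.5 to 46.9), fibroblasts (5 of 5, 25.6 to 72.4), leukocytes (3 of 5, 33.6 to 49.0) and neuroendocrine cells (3 of 4, 28.7 to 58.7) were low beside the median of all genes (114.5; lower quartile 40.7). The fibroblast marker COL3A1 was called lower (-0.35 ± 0.10), a call lost without vehicle array 1 or 2 or combined array 1 or 3. Among the 4 endothelial markers VWF fell from 125, 107 and 106 to 55.5, 43.1 and 41.6, and the list's summed intensity was 197 to 263 on vehicle and 126 to 173 on combined arrays.

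Most genes known to be switched on by androgen were still far above vehicle when celastrol was present. In a list of 29 measured androgen-induced genes, 25 were higher and 1 lower, with a median of 1.71. With androgen alone the median of the same genes was 2.46. The difference between the combined and the androgen cultures had a median of -0.83, and 21 of the 29 were lower with celastrol and 0 higher, beside 7.24% of all genes lower and 9.0% higher in that comparison. KLK2, a kallikrein protease of the prostate, read 258, 212 and 115 on the vehicle arrays, 5491, 6319.9 and 5758 on the androgen arrays and 1865, 2002 and 2297 on the combined arrays. The 3 groups did not overlap and the combined arrays lay between the others; the change from vehicle was 3.47 ± 0.26 (adjusted p = 2.98e-05) and the difference from androgen -1.51 ± 0.26 (adjusted p = 0.00416). KLK3 read 3040.0, 3011 and 3270.5 with vehicle, 13778, 13455 and 14078 with androgen and 7171, 7904 and 7904 with both agents, a rise of 1.30 ± 0.08 (adjusted p = 9.68e-06) and a difference of -0.85 ± 0.08 from androgen; KLK2 and KLK3 are close relatives and their probe sets may share signal. FKBP5, a co-chaperone of steroid receptors and a direct androgen target, read 129, 135 and 132 with vehicle, 2839, 3252 and 2862 with androgen and 969.8, 1102 and 1424 with both and rose by 3.12 ± 0.14. In each of these genes every combined array was above every vehicle array and below every androgen array. TMPRSS2, a membrane serine protease, behaved otherwise: it read 510.2, 390.3 and 450.1 with vehicle, 3481, 3945 and 4593 with androgen and 3142, 3491 and 4119.9 with both. Its combined and androgen arrays overlapped, and their difference was -0.16 ± 0.15 with a 95% interval of -0.50 to 0.18 (adjusted p = 0.574). PMEPA1, which dampens TGF-beta signalling, rose by 2.39 ± 0.10, with a difference of -0.07 ± 0.10 from androgen.

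SLC15A2, a peptide transporter, read 46.1, 54.1 and 75.6 with vehicle, 664, 706 and 650.0 with androgen and 137, 133 and 174 with both, so that it was 1.35 ± 0.18 above vehicle and differed by -2.20 ± 0.18 from androgen. HPGD, which inactivates prostaglandins, read 47.7, 39.6 and 44.1 with vehicle, 542, 507 and 431 with androgen and 162, 145 and 162 with both; its change from vehicle was 1.83 ± 0.11 and its difference from androgen -1.66 ± 0.11. The probe sets of HPGD ran from 0.20 to 2.03 against vehicle, and 2 of the 4 passed. GNMT, a methyltransferase that uses S-adenosylmethionine, rose by 2.16 ± 0.19 and NDRG1, a stress and differentiation gene, by 2.32 ± 0.09. SNAI2, a transcriptional repressor of the snail family, rose by 2.80 ± 0.20 from a vehicle level of 48.5, 47.3 and 27.6, and PTGER4, a prostaglandin receptor, by 2.80 ± 0.16. The other probe set of PTGER4 (0.30) did not pass. CAMKK2, a kinase upstream of AMPK, missed the threshold: its arrays read 220.0, 241 and 152 with vehicle and 268, 275 and 324 with both agents, without overlap, and the change was 0.52 ± 0.17 (adjusted p = 0.0558), which passed under 8 of the 22 alternative settings. STEAP4, a metalloreductase (0.34), and TRPM8, a cold-sensing channel (0.05, at low intensity), also did not pass, although STEAP4 passed after quantile normalization (0.42, adjusted p = 0.0324). The single member that fell was ACP3, prostatic acid phosphatase. It read 4057, 3442 and 4263 on the vehicle arrays, 3293, 3133 and 3133 on the androgen arrays and 595, 572 and 627 on the combined arrays, far below both other groups, and its change from vehicle was -2.71 ± 0.10 (adjusted p = 9.34e-07). With androgen alone its change from vehicle was -0.29.

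**Figure D2:**
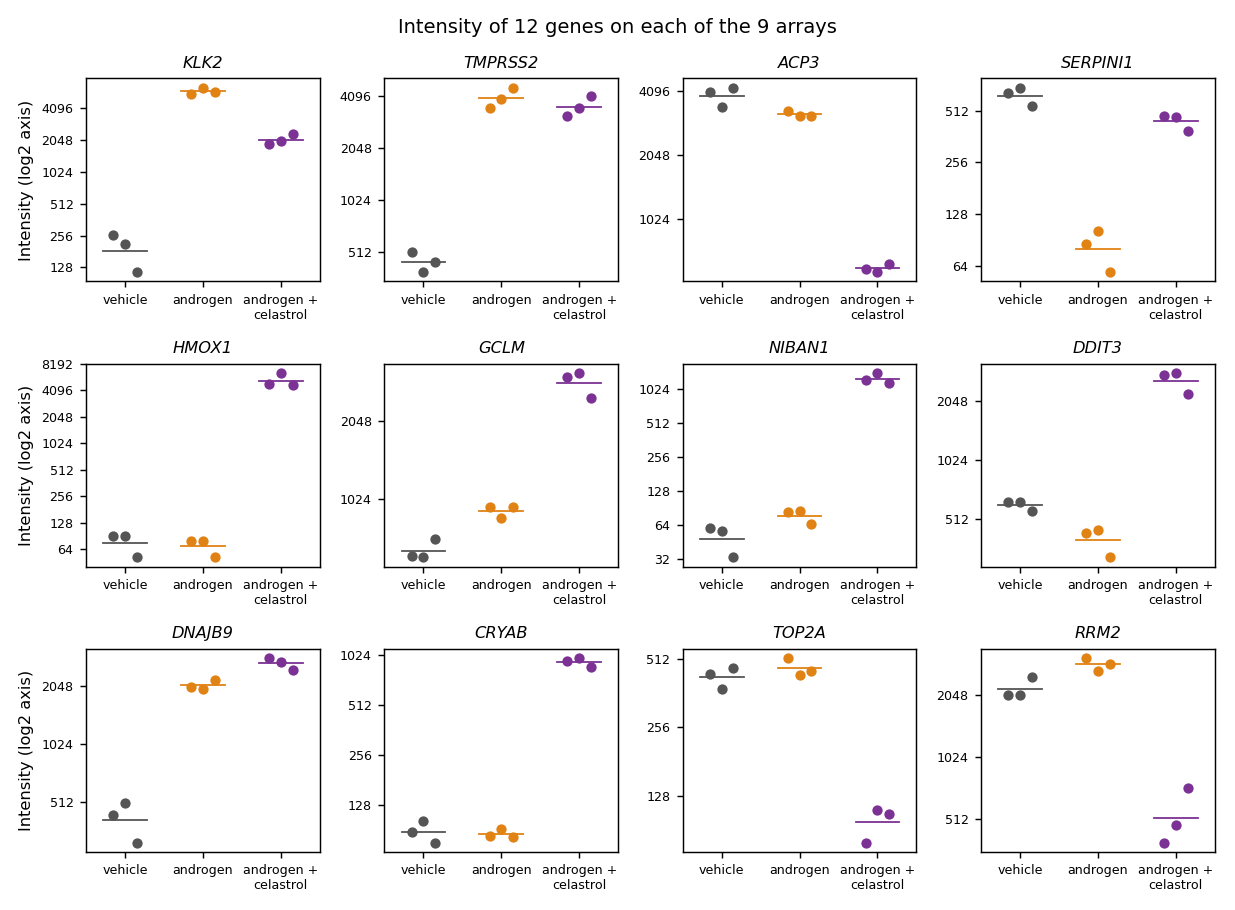
Deposited intensity, on a log2 axis, of 12 genes on each of the 9 arrays; each point is 1 array and each line the mean of the 3 log2 values of a group. KLK2 lies between vehicle and androgen on the combined arrays, TMPRSS2 reaches the androgen level, ACP3, TOP2A and RRM2 fall below both other groups, and HMOX1, GCLM, NIBAN1, DDIT3 and CRYAB rise above both.

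Genes that androgen lowers were mostly low in the combined cultures as well. Of 20 measured, 14 were lower than vehicle and 1 higher, with a median of -1.71 beside -1.96 for androgen alone. UGT2B17 read 5011, 5559 and 4877 with vehicle, 482, 470.3 and 531 with androgen and 522, 481 and 568 with both; it fell by 3.30 ± 0.10 from vehicle (adjusted p = 5.38e-07), and its difference from androgen was 0.08 ± 0.10 with a 95% interval of -0.14 to 0.30. Probe sets for UGT2B15, UGT2B17 and UGT2B28 address close relatives and may share signal. IL1RN read 989, 852 and 992 with vehicle and 73.3, 110.0 and 107 with both agents, and DDC, which makes dopamine and serotonin from their amino acid precursors, read 11177, 9735 and 11476 with vehicle and 1653, 1489 and 1742 with both. Both sets of arrays stood clear of each other, and IL1RN fell by 3.31 and DDC fell by 2.73. The other probe set of DDC (-0.97) did not pass, and 3 of the 5 probe sets of IL1RN passed. COLEC12, outside the list, fell further with both agents than with androgen: its arrays read 1397, 1300.4 and 1500.5 with vehicle, 281, 258 and 281 with androgen and 123, 142 and 164 with both. MYRIP, a myosin and Rab binding protein, fell by 3.14 ± 0.24, FZD3, a Wnt receptor, by 2.41 ± 0.13, and CAMK2N1, an inhibitor of calmodulin kinase II, by 2.25 ± 0.10.

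A few repressed genes stood nearer to vehicle when celastrol was present. SERPINI1, a serine protease inhibitor of neurons, read 654, 698 and 544 with vehicle, 85.4, 102 and 58.7 with androgen and 478, 474 and 392 with both. The change from vehicle was -0.49 ± 0.20 (95% interval -0.94 to -0.05, adjusted p = 0.111) and did not pass, except without androgen array 3 (adjusted p = 0.036) and under 2 other settings, while the difference from androgen was 2.48 ± 0.20 (adjusted p = 9.22e-05). ACKR3, a scavenging chemokine receptor, read 1877, 1878 and 1703 with vehicle, 317, 253 and 227 with androgen and 727, 727 and 751 with both; it fell by 1.31 ± 0.12 from vehicle and lay 1.48 ± 0.12 from androgen. BCHE, butyrylcholinesterase, fell by 2.29 ± 0.15 and differed by 1.10 ± 0.15 from androgen. FGF13, an intracellular fibroblast growth factor homologue outside the list, went past the starting level: 493, 502 and 502 with vehicle, 124, 92.8 and 93.8 with androgen and 982, 1104 and 824 with both, a rise of 0.95 ± 0.14 over vehicle. UGT2B28 ran the other way, with 229.5, 186 and 155 for vehicle, 545, 680.3 and 602 for androgen and 92.9, 82.3 and 104 for both, and fell by 1.02 ± 0.16. LIFR, the receptor for leukemia inhibitory factor, was the member of the list that rose (0.90 ± 0.14). It read 32.9, 25.5 and 31.9 with vehicle, 121, 119 and 111 with androgen and 45.7, 60.7 and 62.4 with both, so that it was higher with androgen alone (1.97) and lower with both agents than with androgen (-1.07 ± 0.14).

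**Figure D3:**
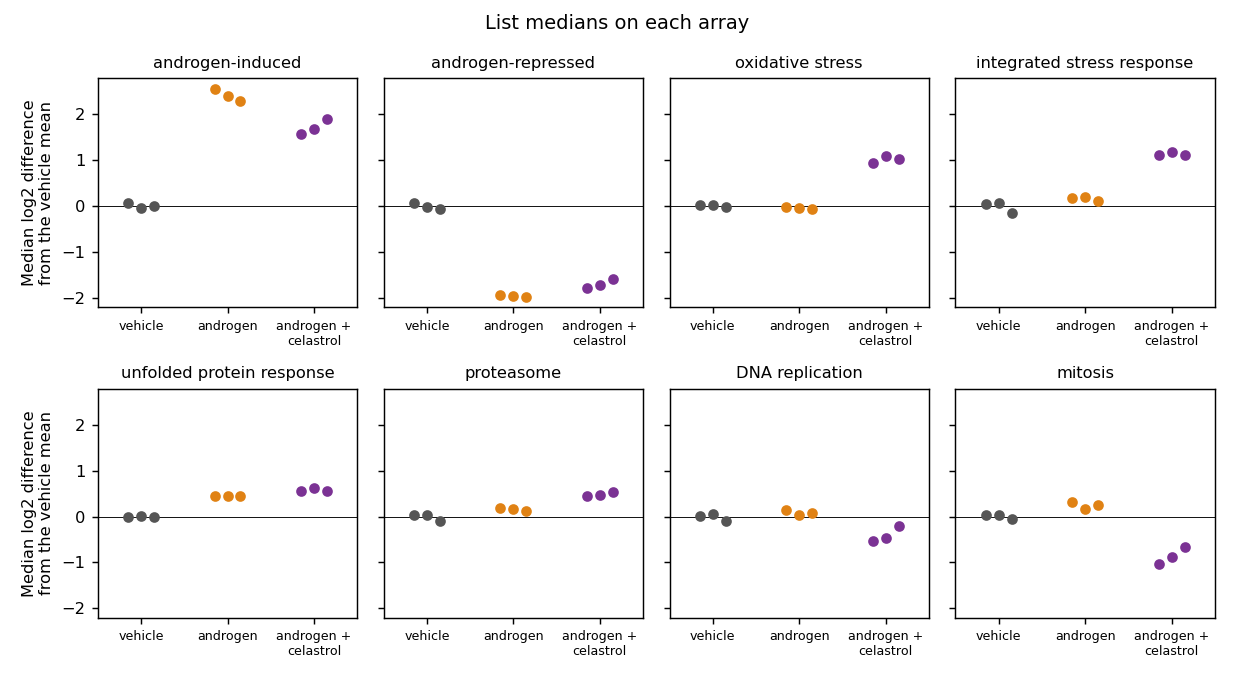
Median over the measured members of 8 gene lists, on each array, of the log2 difference from the vehicle mean; each point is 1 array. The androgen-induced list lies at 1.58 to 1.89 on the combined arrays and 2.29 to 2.55 on the androgen arrays, while the mitosis list lies at -1.04 to -0.66 on the combined arrays and 0.17 to 0.32 on the androgen arrays.

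Antioxidant genes rose together. NRF2, encoded by NFE2L2, is released from its inhibitor KEAP1 when reactive compounds modify KEAP1, and it then drives genes for glutathione synthesis, quinone reduction and NADPH supply. Of 30 measured genes of oxidative stress and glutathione, 26 were higher and 0 lower, with a median of 1.05; with androgen alone the median was -0.06. HMOX1 read 91.4, 91.4 and 52.8 on the vehicle arrays, 78.8, 80.1 and 51.7 on the androgen arrays and 4914, 6510.1 and 4701 on the combined arrays. Vehicle and androgen arrays were at like, low levels and the combined arrays far above, a rise of 6.13 ± 0.26 or 69.8-fold (adjusted p = 2.08e-06). AKR1C2 read 71.4, 95.9 and 76 with vehicle and 5648, 7166 and 5356 with both, and AKR1C1 101, 104 and 74.7 with vehicle and 5844, 6666 and 4331 with both, rises of 6.22 ± 0.17 and 5.90 ± 0.19. These enzymes are close relatives, so that their probe sets may share signal, and a further probe set named for AKR1C2 changed by only 0.23. AKR1C3, which makes testosterone from androstenedione, read 63.7, 51.5 and 75.4 with vehicle and 69.4, 176 and 163 with both; its arrays overlapped and its change of 1.00 ± 0.35 did not pass (adjusted p = 0.0757), although it was 1.43 and passed without combined array 1 (adjusted p = 0.00493). Both subunits of the glutamate-cysteine ligase, the first enzyme of glutathione synthesis, rose: GCLM read 621, 612 and 720.5 with vehicle and 3034, 3156 and 2519 with both, and GCLC 1033, 1033 and 994 with vehicle and 1737, 1949.9 and 1574 with both. Their changes were 2.15 ± 0.11 for GCLM and 0.78 ± 0.11 for GCLC. SLC7A11, the cystine transporter that feeds this synthesis, read 985, 879.7 and 887 with vehicle and 4638, 5626 and 4703 with both and rose by 2.44 ± 0.10. NQO1, a quinone reductase, went from 3377, 3253 and 3225 to 8057, 8037 and 7486, and TXNRD1, thioredoxin reductase, from 3074, 2869.6 and 3429.7 to 9741, 9638 and 7718. CBR3, a carbonyl reductase, rose by 2.32 ± 0.10, NFE2L2 by 0.62 ± 0.08 and KEAP1 by 0.47 ± 0.11. GPX2, a glutathione peroxidase (0.08), and ABCC3, a conjugate exporter (-0.23), did not pass, both at low intensity, but ABCC3 was called lower without combined array 2 (-0.37, adjusted p = 0.0214).

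The antioxidant response element, to which NRF2 binds, has the core TGACNNNGC. Promoter sequences (250 bases before to 50 after the start of the gene, RefSeq, GRCh38.p14) were at hand for 23 of the 30 genes, and the core was present on either strand in 5 of them (21.7%), beside 14.8% of 9711 promoters of measured genes. A match is a description of the letters and not a binding site. TXNRD1, ME1 and GPX2 also held it, and GPX2 did not pass. The cores of GCLM and CBR1 are shown as examples, chosen among members that rose, read 5′ to 3′ on the strand of the gene with the core, or its reverse complement, in capitals.
GCLM (chr1:93909431-93909489, minus strand): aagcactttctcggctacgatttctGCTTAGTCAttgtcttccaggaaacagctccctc
CBR1 (chr21:36069840-36069898, plus strand): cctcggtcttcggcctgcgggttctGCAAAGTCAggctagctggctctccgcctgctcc
GCLM rose by 2.15 and CBR1, a carbonyl reductase, by 1.24 ± 0.12, from 231, 225 and 204 on the vehicle arrays to 565, 459 and 540.0 on the combined arrays.

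Genes of the integrated stress response rose as well. In that pathway, kinases that sense amino acid lack, heme lack or unfolded proteins phosphorylate eIF2alpha, general translation slows, and the transcription factor ATF4 is made and turns on genes of amino acid supply. Of 29 measured members 26 were higher and 0 lower, median 1.10, beside 0.18 with androgen alone. NIBAN1, a stress-induced regulator of translation, read 59.9, 57.1 and 33 with vehicle, 83, 84.2 and 65.1 with androgen and 1212, 1410.2 and 1143 with both. Its combined arrays lay far above the others, with a rise of 4.69 ± 0.22 or 25.9-fold (adjusted p = 3.59e-06). DDIT3, which encodes the factor CHOP, read 625, 625 and 557 with vehicle, 432, 447 and 325 with androgen and 2757, 2836 and 2219.6 with both and rose by 2.11 ± 0.15. ATF3, a repressor induced by ATF4, read 402, 449 and 256 with vehicle and 1818, 1960.2 and 1739 with both, and TRIB3, a pseudokinase, 401, 359 and 227 with vehicle and 1323, 1793 and 1418 with both. GDF15, a secreted stress hormone, rose by 2.47 ± 0.16, although its other probe set changed by 0.19 and did not pass. CHAC1, which degrades glutathione, rose by 2.35 ± 0.10 and ATF4 itself by 0.98 ± 0.11. The vehicle and combined arrays of these genes did not overlap. PPP1R15A, the inducible subunit of the phosphatase that reverses the pathway (-0.13, at low intensity), and CBS, cystathionine beta-synthase (0.00), did not pass.

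Genes of amino acid supply rose beside them. Of 16 measured amino acid transporters 10 were higher and 0 lower (median 1.02). SLC3A2, the heavy chain shared by several of these transporters, read 301, 323 and 251 with vehicle and 865, 1333 and 1115 with both, SLC1A4 rose by 1.88 ± 0.17, SLC36A1 by 1.70 ± 0.14 and SLC1A5, the glutamine carrier, by 1.58 ± 0.16. The probe sets of SLC1A4 ran from 0.07 to 2.03, and 2 of the 4 passed. Aminoacyl-tRNA synthetases, which load amino acids onto their tRNAs, were higher for 12 of 18 with 0 lower (median 0.48). GARS1 read 2446, 2462 and 2366 with vehicle and 5739, 6012 and 5996 with both and rose by 1.29 ± 0.07; CARS1 rose by 1.07 ± 0.09, SARS1 by 1.04 ± 0.08 and YARS1 by 0.98 ± 0.08, while LARS1 (-0.01) and KARS1 (-0.06) did not pass. Of 15 synthesis enzymes 8 were higher and 1 lower. CTH, which makes cysteine, read 105, 99.1 and 62.9 with vehicle and 335, 412 and 390.4 with both and rose by 2.12 ± 0.19, MTHFD2, a mitochondrial folate enzyme, by 0.95 ± 0.08, PSAT1, of serine synthesis, by 0.93 ± 0.10, and ASNS, asparagine synthetase, by 0.75 ± 0.10. GLUL, glutamine synthetase (0.09), did not pass, and the fall of GOT2, an aspartate aminotransferase (-0.27), was lost when any single array other than vehicle array 1 was left out.

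Several of these promoters hold the composite element that C/EBP and ATF factors bind, searched as TGATGNAA on both strands. It was present in 5 of 23 promoters of the list (21.7%) beside 2.23% of all 9711. The stretches with the match are shown for 4 of the 5 genes as examples (the fifth, SLC3A2, rose as well), with the match in capitals and the strand of the gene read 5′ to 3′.
CHAC1 (chr15:40953237-40953294, plus strand): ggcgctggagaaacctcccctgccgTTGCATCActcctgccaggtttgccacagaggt
ATF3 (chr1:212565191-212565248, plus strand): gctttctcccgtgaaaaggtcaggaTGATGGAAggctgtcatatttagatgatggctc
HERPUD1 (chr16:56931941-56931998, plus strand): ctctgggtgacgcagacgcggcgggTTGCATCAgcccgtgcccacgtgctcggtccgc
ASNS (chr7:97872444-97872501, minus strand): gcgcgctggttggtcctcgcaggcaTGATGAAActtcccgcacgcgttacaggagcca
CHAC1 and HERPUD1 carry the element in the reverse orientation and ATF3 and ASNS in the forward one. HERPUD1, which serves the degradation of proteins from the endoplasmic reticulum, read 1489.8, 1494 and 1483 with vehicle, 2994, 3139 and 3257 with androgen and 3199.9, 3375 and 3426 with both. It was thus already up with androgen alone (1.07), and the difference between both agents and androgen was 0.09 ± 0.07 with a 95% interval of -0.07 to 0.25. CHAC1 read 79.9, 77.7 and 70.8 with vehicle, 109, 102 and 87.8 with androgen and 416, 389 and 361 with both, and ASNS 2812, 2739.8 and 2299.7 with vehicle, 2291, 2248 and 2046 with androgen and 4277, 4309.8 and 4532 with both. In these 2 the combined arrays lay above both other groups.

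The unfolded protein response and the secretory pathway were raised too, and their medians were above 0 with androgen alone as well. The unfolded protein response senses misfolded proteins in the endoplasmic reticulum and supplies chaperones, oxidoreductases and degradation factors. 20 of 22 measured members were higher and 0 lower, with a median of 0.53 beside 0.44 for androgen alone. DNAJB9, a chaperone of the endoplasmic reticulum, read 435, 503 and 315 with vehicle, 2018, 1974 and 2209 with androgen and 2863, 2718 and 2492 with both. It rose by 2.71 ± 0.16 over vehicle (adjusted p = 9.37e-06), and although the combined arrays were all above the androgen arrays the difference of 0.38 ± 0.16 did not pass (adjusted p = 0.165). DNAJC3, an inhibitor of the kinase PERK, rose by 2.05 ± 0.11 and lay 0.92 ± 0.11 above androgen. SDF2L1 rose by 1.88 ± 0.17 and the oxidase ERO1A by 1.33 ± 0.13. HSPA5, the main chaperone BiP, read 6454, 6986 and 6005 with vehicle and 8852, 8884 and 9314 with both, a rise of 0.48 ± 0.08. ERN1, the sensor IRE1 (-0.10), and CALR, calreticulin (0.28, adjusted p = 0.0951), did not pass. In the secretory pathway and N-glycosylation list 24 of 26 were higher and 0 lower, median 0.90 beside 0.61 with androgen. SPCS3, a subunit of the signal peptidase, read 207, 199.6 and 122 with vehicle, 498, 461 and 530.3 with androgen and 901, 846 and 931 with both. SEC24D, of the COPII coat, rose by 2.36 ± 0.13 and LMAN1, a cargo receptor, by 1.53 ± 0.14. The probe sets of SEC24D ran from 0.17 to 2.36, and 2 of the 3 passed. TMED10, a cargo receptor of the early pathway (0.09), and SPCS1, another signal peptidase subunit (0.12), did not pass, although TMED10 passed with the mean of its probe sets (0.35, adjusted p = 0.00563).

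Heat shock genes moved in both directions. Heat shock factor HSF1 turns on chaperones such as HSPA1B, DNAJB1 and HSPB8 when proteins misfold in the cytosol. Of 29 measured members 7 were higher and 4 lower, beside 13.3% and 10.0% of all genes. The median was 0.03, and the count of lower members was 7 after quantile normalization. CRYAB, a small heat shock protein, read 88.3, 104 and 76.8 with vehicle, 83.5, 93 and 83.1 with androgen and 943, 983 and 867 with both and rose by 3.39 ± 0.12 (adjusted p = 9.34e-07). HSPB8, another small heat shock protein, read 186, 187 and 134 with vehicle, 115, 121 and 112 with androgen and 574, 556 and 509 with both. The J-domain protein DNAJB4 read 343, 294 and 329 with vehicle, 236, 233 and 222 with androgen and 722, 635 and 634 with both. In all 3 the combined arrays were above both other groups, with rises over vehicle of 1.71 ± 0.13 for HSPB8 and 1.04 ± 0.09 for DNAJB4. BAG1, a co-chaperone of HSP70, rose by 0.87 ± 0.14, HSPA9, the HSP70 of mitochondria, by 0.58 ± 0.09, and BAG3 by 0.53 ± 0.12. FKBP5, which the list also holds, is the seventh member that rose. Major cytosolic chaperones were lower or did not pass. HSPA8, the constitutive HSP70, read 13606, 13555 and 12477 with vehicle and 9149, 9388 and 9662 with both, without overlap, and fell by 0.49 ± 0.07 (adjusted p = 0.00147). HSPA4L fell by 1.15 ± 0.17, with -1.30 for androgen alone. DNAJB1 read 988, 1022 and 936 with vehicle and 619, 661 and 724 with both and fell by 0.56 ± 0.08, a call that was lost when the probe set was chosen over the 6 arrays (-0.10, adjusted p = 0.397). HSPA1L fell by 0.40 ± 0.11, a call lost without vehicle array 1 or 2 or combined array 2 or 3. HSPA1B, the heat-inducible HSP70, read 1752, 1692 and 1750.2 with vehicle and 1626, 1431 and 1475 with both, a change of -0.20 ± 0.08 with a 95% interval of -0.38 to -0.01 (adjusted p = 0.118), and passed downward under 4 of the 22 alternatives. HSP90AA1, the inducible HSP90, read 10482, 10480.1 and 9800.1 with vehicle and 9699.8, 9589 and 10187 with both, with overlapping arrays, and its change was -0.06 ± 0.07 with an interval of -0.23 to 0.10. HSPA1A read 28.7, 27.3 and 24.6 with vehicle and 24, 27.6 and 27.2 with both, at the bottom of the range. This is the only probe set paired with HSPA1A alone, so whether HSPA1A changed cannot be read from it. HSPA1A and HSPA1B are close relatives and their probe sets may share signal. HSF1 (0.00) did not pass.

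Heat shock elements consist of alternating repeats of GAA and TTC. The pair GAANNTTC was present in 8 of 26 promoters of the list (30.8%) beside 5.23% of all 9711. The pair TTCNNGAA was present in 5 of 26 (19.2%) beside 6.62%. The 2 patterns read the same on both strands and can overlap in a longer repeat. The 8 are not all separate sites: HSPA1A and HSPA1L share 1 match, the same stretch read on opposite strands. The stretch around the match of HSPA1B has nearly the same letters as that of HSPA1A. The stretches of HSPB8 and HSPA1B are shown since both hold the same letters GAATATTC while the first gene rose and the second did not, with matches in capitals.
HSPB8 (chr12:119178818-119178960, plus strand): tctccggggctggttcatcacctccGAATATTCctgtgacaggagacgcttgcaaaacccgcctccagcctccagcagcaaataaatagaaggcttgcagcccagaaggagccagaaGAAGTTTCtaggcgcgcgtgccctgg
HSPA1B (chr6:31827608-31827665, plus strand): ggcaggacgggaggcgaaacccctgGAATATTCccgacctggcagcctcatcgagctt

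Proteasome genes were higher nearly throughout. The proteasome degrades ubiquitin-tagged proteins, and its core particle is built of PSMA and PSMB subunits and its cap of PSMC and PSMD subunits. Of 29 measured, 26 rose and 0 fell, with a median of 0.47 beside 0.18 for androgen alone. PSMD8 read 2862, 2951 and 2463 with vehicle, 4484, 5007 and 4271 with androgen and 5465, 5763 and 6601 with both and rose by 1.11 ± 0.11. PSMD11 rose by 1.05 ± 0.11, PSMD12 by 0.99 ± 0.08 and PSMB2 by 0.89 ± 0.07. The other probe sets of PSMD11 (0.20) and PSMD12 (0.32) did not pass. PSMB5, which carries the chymotrypsin-like activity, read 2025, 2032 and 1976 with vehicle and 2921, 2784 and 2967 with both, a rise of 0.52 ± 0.07. PSMA4 (0.01) and PSMB4 (0.13) did not pass.

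Metallothioneins, small proteins that bind zinc and copper through cysteines, rose: 7 of 9 members of their list were higher, with a median of 1.21. MT1F read 281, 248 and 211 with vehicle, 311, 295 and 256 with androgen and 965, 991 and 927 with both and rose by 1.97 ± 0.12. MT2A read 1501, 1466 and 1252 with vehicle, 1029.6, 1116 and 992 with androgen and 3003, 3249 and 3526 with both. The combined arrays of both were above the other groups. MT1H rose by 1.68 ± 0.12, MT1X by 1.64 ± 0.13 and MT1G by 1.63 ± 0.12, but a further probe set of MT1G changed by only 0.11. MT1E (0.24) and MT3 (0.21) did not pass at low intensity. The metallothionein genes are close relatives and their probe sets may share signal. In the autophagy and lysosome list 11 of 23 were higher and 1 lower. GPNMB, a glycoprotein of lysosomes and melanosomes, read 358, 323 and 343 with vehicle, 196, 166 and 194 with androgen and 1669, 1782 and 1847 with both and rose by 2.37 ± 0.09. SQSTM1, the autophagy receptor p62, read 2909, 2800.5 and 2898 with vehicle, 2161, 2148 and 2469 with androgen and 6440.2, 6034 and 6009 with both. CTSD, a lysosomal protease, rose by 1.18 ± 0.13, and MAP1LC3B, which coats autophagosomes, by 1.02 ± 0.16. WIPI1, of autophagosome formation, rose by 2.35 ± 0.18, with 2.28 for androgen alone. The fall of BECN1 (-0.36), a regulator of autophagosome formation, was lost without vehicle array 1 or combined array 2 or 3, and LAMP2 (-0.02) and NBR1 (0.00) did not pass. Of 12 iron and heme genes 7 were higher and 0 lower: BLVRB, which reduces biliverdin, rose by 1.66 ± 0.13, FTL, ferritin light chain, by 0.99 ± 0.09, and HMOX2, the constitutive heme oxygenase, by 0.75 ± 0.13. The other probe set of HMOX2 (0.40) did not pass.

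**Figure D4:**
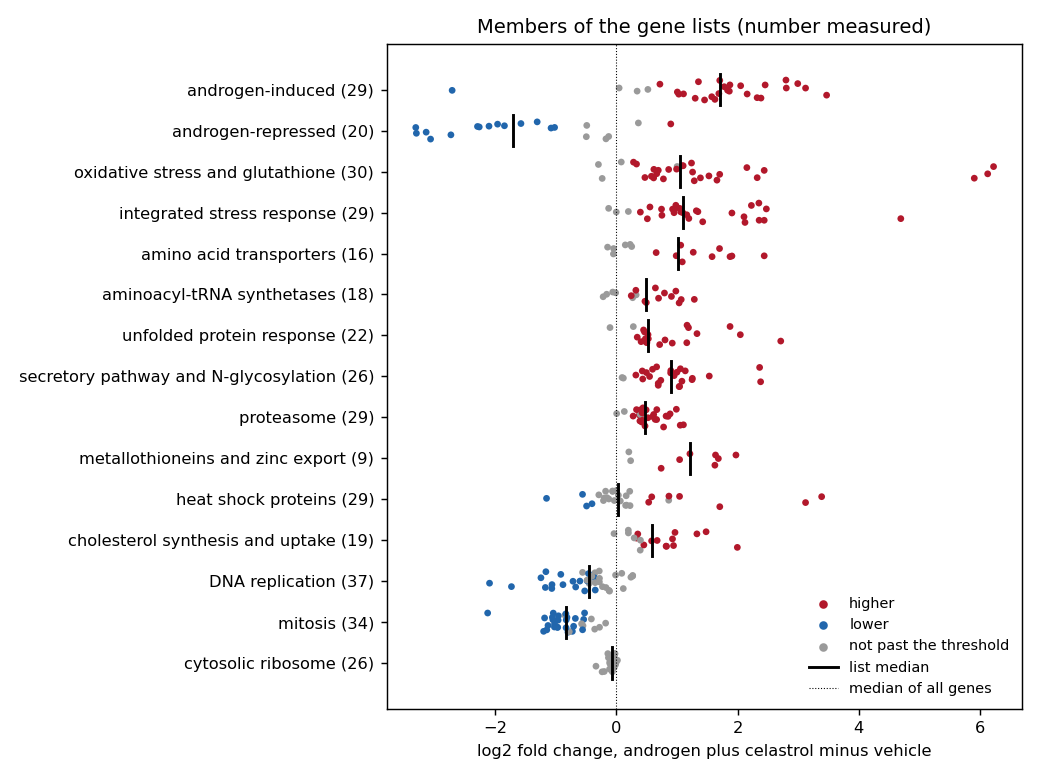
Log2 fold change (androgen plus celastrol minus vehicle) of each measured member of 15 gene lists; each point is a gene, the black bar is the list's median and the dotted line the median of all genes. The antioxidant, stress, secretory and proteasome lists lie to the right, with medians of 0.47 to 1.10, the mitosis list lies at -0.83, and the cytosolic ribosome lies at -0.07.

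Genes of mitosis and DNA replication fell. The RNA was taken from whole cultures, so that fewer dividing cells and less RNA per dividing cell cannot be told apart. Of 34 measured mitosis genes 26 were lower and 0 higher, median -0.83; with androgen alone the median was 0.23, and 32 of the 34 were lower with both agents than with androgen. TOP2A, topoisomerase II alpha, which untangles chromosomes, read 441, 379 and 468 with vehicle, 517, 435 and 451 with androgen and 79.8, 111 and 107 with both. Vehicle and androgen arrays overlapped and the combined arrays were below both, a fall of 2.12 ± 0.14 (adjusted p = 1.91e-05). MKI67, which encodes the Ki-67 antigen of cycling cells, read 206, 227 and 244 with vehicle, 259.6, 262 and 292 with androgen and 63.8, 114 and 145 with both and fell by 1.15 ± 0.25 (adjusted p = 0.0107). CDK1, the kinase that starts mitosis, read 2908, 3097 and 2437 with vehicle, 3273, 3194 and 3384 with androgen and 1202, 1115 and 1572 with both. CENPF fell by 1.20 ± 0.10 and NDC80, of the kinetochore, by 1.18 ± 0.11. Only 2 of the 4 probe sets of MKI67 and 2 of the 3 of CENPF passed. KIF14 (-0.28), a mitotic kinesin, and AURKA (-0.18), a spindle kinase, did not pass, although AURKA was -0.35 and passed without vehicle array 3 (adjusted p = 0.0286).

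Of 37 replication genes 17 were lower and 0 higher, median -0.45; without 1 array the lower count ran from 12 to 21. RRM2, a subunit of ribonucleotide reductase, read 2048, 2048 and 2502 with vehicle, 3099, 2689 and 2888 with androgen and 392, 476 and 726 with both, and TYMS, which makes thymidylate, 2107, 2383 and 1824 with vehicle, 2398, 2033 and 2008 with androgen and 569, 529 and 834 with both. Both were below the other groups on every combined array, and relative to vehicle RRM2 fell by 2.09 ± 0.20 and TYMS by 1.73 ± 0.18. The other probe set of TYMS (-0.38) did not pass. MCM7 fell by 1.24 ± 0.12, MCM2 by 1.17 ± 0.22 and PCNA, the sliding clamp, by 0.92 ± 0.13. The licensing factor CDT1 (-0.01) and RPA3 (0.09) did not pass. Of 16 replication-dependent histones 2 were higher and 2 lower, beside 13.3% and 10.0% of all genes. H4C3 read 463, 528 and 415 with vehicle and 108, 199 and 141 with both and fell by 1.69 ± 0.20. H4C8 rose by 0.76 ± 0.10 and H2BC21 by 0.52 ± 0.08. The other probe set of H4C8 (0.27) did not pass. The fall of H1-2 (-0.47) was lost without vehicle array 1 or 2 or combined array 1 or 2.

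Promoters of genes expressed late in the cell cycle often hold the cell cycle genes homology region, searched as TTTGAA on both strands. It was present in 20 of 28 promoters of the mitosis list (71.4%) beside 10.9% of all 9711. KIF14, which did not pass, held it as well. The stretches of 4 genes, chosen as examples among those that fell, are shown on the strand of the gene, 5′ to 3′, with each match in capitals.
TOP2A (chr17:40418017-40418115, minus strand): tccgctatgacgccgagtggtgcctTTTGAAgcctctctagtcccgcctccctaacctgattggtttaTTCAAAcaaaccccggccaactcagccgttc
MKI67 (chr10:128126422-128126495, minus strand): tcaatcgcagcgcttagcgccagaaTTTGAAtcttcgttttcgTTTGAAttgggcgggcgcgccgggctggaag
KIF11 (chr10:92593077-92593132, plus strand): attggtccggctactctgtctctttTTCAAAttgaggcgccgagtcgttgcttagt
NDC80 (chr18:2571529-2571584, plus strand): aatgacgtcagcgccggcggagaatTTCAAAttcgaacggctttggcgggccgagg
TOP2A and MKI67 hold 2 matches and KIF11 and NDC80 hold 1. KIF11, the kinesin that pushes spindle poles apart, read 92.6, 93.7 and 70.1 with vehicle and 31.3, 47.2 and 49.6 with both and fell by 1.02 ± 0.20.

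Sterol genes were higher. Of 19 measured genes of cholesterol synthesis and uptake 13 were higher and 0 lower, median 0.58 beside 0.69 with androgen. HMGCS1, an early enzyme of the pathway, read 354, 340.2 and 252 with vehicle, 945, 895 and 941 with androgen and 1412, 1124 and 1212 with both and rose by 2.00 ± 0.14. INSIG1, a brake on sterol regulatory proteins, rose by 1.48 ± 0.08 and SC5D, a late desaturase, by 1.33 ± 0.07. The other probe set of SC5D (0.27) did not pass. TM7SF2, a sterol reductase, was an exception: 2112, 2297 and 1944 with vehicle, 1216, 1420.4 and 1334 with androgen and 1788, 2119 and 2299.8 with both, so that vehicle and combined arrays overlapped (change -0.04 ± 0.12, 95% interval -0.30 to 0.23). Among 16 fatty acid genes 6 were higher and 1 lower. FASN, fatty acid synthase, read 1340.2, 1118 and 1581 with vehicle, 3014, 2392 and 2711 with androgen and 1870.0, 1345 and 1551 with both, and ACLY, which supplies acetyl-CoA, 3304, 3279.7 and 3491 with vehicle, 5127, 4455 and 5238 with androgen and 3384, 2934 and 3372 with both. For both, vehicle and combined arrays overlapped, and the changes of 0.24 ± 0.16 and -0.06 ± 0.10 did not pass, while the differences from androgen were -0.78 ± 0.16 and -0.61 ± 0.10. ELOVL6, an elongase, read 384, 384 and 384 with vehicle, 246, 238 and 236 with androgen and 656, 632 and 611 with both, opposite in direction to androgen, and rose by 0.72 ± 0.07. The other probe set of ELOVL6 (0.40) did not pass. FADS1, a desaturase, rose by 1.31 ± 0.09, and CPT1A, which carries fatty acids into mitochondria, fell by 0.54 ± 0.11, which did not pass with the mean of its probe sets (-0.12, adjusted p = 0.489).

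Polyamine genes, of a pathway that is strong in prostate, had 4 of 12 members higher and 1 lower; without vehicle array 1 the higher members were 2. SAT1, which acetylates spermidine and spermine, read 1696, 1665 and 1488 with vehicle, 4691, 4515 and 4549 with androgen and 4542, 4900.3 and 4459 with both; the last 2 overlapped and the rise over vehicle was 1.52 ± 0.08. ODC1, the first enzyme of the pathway, rose by 0.92 ± 0.07. SMS, spermine synthase, rose by 0.53 ± 0.13 but lay -1.22 ± 0.13 from androgen, and the call against vehicle was lost without vehicle array 1 (adjusted p = 0.052). ARG2, the arginase of mitochondria, read 1467, 1545 and 1279.8 with vehicle, 1755, 1829 and 1704 with androgen and 505, 543 and 707 with both and fell by 1.30 ± 0.13. The other probe set of ARG2 (-0.33) did not pass. In glycolysis 9 of 22 were higher and 1 lower. HK2, hexokinase II, rose by 1.12 ± 0.15, with 1.25 for androgen alone, but its other probe set was at -0.26 and did not pass. SLC2A1, the glucose transporter GLUT1, rose by 0.68 ± 0.13, and PFKM, a phosphofructokinase, fell by 0.71 ± 0.08. The other probe set of SLC2A1 (0.26) did not pass. PKM, pyruvate kinase (0.00), and PFKL (-0.01) did not pass.

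Growth factor signalling genes moved in both directions, 6 of 20 higher and 5 lower. IGF1R, the receptor for insulin-like growth factor 1, read 97.6, 82.4 and 82.6 with vehicle, 537, 462 and 484 with androgen and 276, 276 and 289 with both and rose by 1.68 ± 0.10. The probe sets of IGF1R ran from 0.01 to 1.68, and 2 of the 3 passed. IRS2, an adaptor of the same receptor, rose by 1.78 ± 0.22 and VEGFA, a growth factor for vessels, by 1.32 ± 0.12. PIK3R3, a regulatory subunit of PI3 kinase, fell by 1.85 ± 0.09. ERBB2, the receptor HER2, read 562, 536 and 634 with vehicle, 322, 303 and 265 with androgen and 238, 203 and 273 with both, and ERBB3, its partner, 1407, 1421 and 1448 with vehicle, 1317, 1163 and 1174 with androgen and 744, 743 and 717 with both. ERBB3 was below androgen as well as vehicle on every combined array, with a fall of 0.96 ± 0.08 from vehicle, while ERBB2 fell by 1.28 ± 0.13 from vehicle and had a difference of -0.33 ± 0.13 from androgen that did not pass. The other probe set of ERBB2 (-0.48) did not pass against vehicle. Of 19 apoptosis regulators 6 were higher and 3 lower. PMAIP1, the death-promoting protein NOXA, rose by 1.02 ± 0.15 and TNFRSF10B, a death receptor for TRAIL, by 1.00 ± 0.09, whereas BID fell by 1.02 ± 0.13 and BIRC5, survivin, which the mitosis list also holds, by 0.96 ± 0.08.

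In the prostate lineage list, 5 of 15 were higher and 3 lower. KRT8, a keratin of luminal cells, read 1276, 1415 and 1143 with vehicle, 3702, 3953 and 4292 with androgen and 2356, 2660.2 and 2634 with both and rose by 1.00 ± 0.10. Its partner KRT18 rose by 0.77 ± 0.10, the epithelial factor EHF by 1.00 ± 0.12 and GRHL2 by 0.73 ± 0.09. The other probe set of KRT8 (0.41) did not pass. SPDEF, a luminal transcription factor, read 523, 554 and 503 with vehicle, 1892, 2065 and 1667 with androgen and 702, 658 and 768 with both, most of the way back to vehicle. Its rise of 0.43 ± 0.10 did not pass without combined array 3 or with the mean of its probe sets (0.24, adjusted p = 0.23). EPCAM (-0.05) and PSCA (0.02) did not pass. The call of GATA2 (-0.62) was lost without vehicle array 1 or 2 or combined array 1 or 2. That of FOLH1 (-0.29) was lost without combined array 3 and with array medians subtracted. It was also lost with the mean of its probe sets (-0.15, adjusted p = 0.281), which ran from -0.30 to 0.27. Among 13 steroid receptor coregulators 4 were lower and 0 higher, and after quantile normalization 8 were lower. NRIP1, a corepressor, read 1017, 948 and 1089 with vehicle, 794, 672 and 763 with androgen and 529.9, 453 and 526 with both and fell by 1.02 ± 0.10, and KDM1A, a histone demethylase, fell by 0.62 ± 0.10. The probe sets of TMF1, another of the 4, pointed in opposite directions (-0.55 and 0.88). PIAS1, a SUMO ligase that binds the receptor, read 489, 439 and 423 with vehicle, 925, 1016 and 914 with androgen and 388, 409 and 422 with both; its change from vehicle was -0.15 ± 0.09 with an interval of -0.34 to 0.05 and its difference from androgen -1.23 ± 0.09. In the junction and cytoskeleton list 6 of 24 were higher and 4 lower. TUBA1A, an alpha tubulin, read 4819.6, 4917 and 4476 with vehicle, 2875, 2758 and 2406 with androgen and 1330.5, 1154 and 1306 with both and fell by 1.91 ± 0.10. VIM, vimentin, fell by 1.33 ± 0.28 and DSP, desmoplakin, by 0.71 ± 0.09, while CLDN7, a claudin of tight junctions, rose by 1.10 ± 0.08.

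The p53 list had 4 of 15 higher and 3 lower, beside 13.3% and 10.0% of all genes. CDKN1A, the cell cycle inhibitor p21, read 859, 878 and 649 with vehicle and 855, 1003 and 898 with both; the arrays overlapped and the change was 0.22 ± 0.13 (95% interval -0.07 to 0.51, adjusted p = 0.267). SESN1, a sestrin that restrains mTOR, read 1332, 1319 and 1151 with vehicle and 401, 416 and 419 with both and fell by 1.62 ± 0.08, and DDB2, of DNA repair, fell by 1.36 ± 0.26. GDF15, given above, is also held by this list. In the NF-kappaB list 3 of 19 were higher and 1 lower, beside the same shares of all genes. With replicate number as a block within the compared groups 0 were higher. NFKB1, a subunit of the factor, read 849, 763 and 929 with vehicle, 372, 345 and 326 with androgen and 278, 399.8 and 376 with both, so that both androgen-treated groups were at like levels, and it fell by 1.28 ± 0.14; NFKBIA, its inhibitor, rose by 0.83 ± 0.14. IL6, a cytokine, read 26.8, 28.1 and 31.2 with vehicle and 32.6, 28.1 and 28.1 with both, at the bottom of the range. Of 19 immediate early genes 4 were higher and 2 lower, again beside 13.3% and 10.0% of all genes. MYC read 3683, 3834 and 3255 with vehicle, 2985, 3028 and 2923 with androgen and 1741, 1619 and 2279 with both and fell by 0.95 ± 0.13 (adjusted p = 0.000852), and JUN fell by 0.74 ± 0.09. EGR1 rose by 1.25 ± 0.10 from a dim 28.7, 30.4 and 28.4.

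Among genes outside these lists, 3 of the largest rises were further from vehicle with both agents than with androgen. MIR22HG, the host transcript of a microRNA, read 215, 174 and 81.6 with vehicle, 477, 442 and 381 with androgen and 2621, 2742 and 2385 with both and rose by 4.15 ± 0.30. LPXN, a focal adhesion protein of the paxillin family, read 245, 218 and 199 with vehicle, 544, 516 and 516 with androgen and 1627, 1605 and 1318 with both, and S100P, a calcium-binding protein, 222, 232 and 127 with vehicle, 348, 362 and 308 with androgen and 1422, 1154 and 1258 with both. The 3 genes showed no overlap between any pair of groups. CSGALNACT1, of chondroitin sulfate synthesis, and OTULINL rose by 2.89 ± 0.34 and 2.82 ± 0.08, and each was below its androgen level on every array. The difference from androgen passed for OTULINL (-0.67 ± 0.08) but not for CSGALNACT1 (-0.90 ± 0.34, adjusted p = 0.129). NREP, a neuronal regeneration protein, read 2070.5, 1966 and 1838 with vehicle, 1499.7, 1494 and 1573 with androgen and 346, 381 and 506 with both and fell by 2.27 ± 0.13, far below its androgen level as well.

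None of 26 cytosolic ribosome genes passed the threshold in limma (median -0.07), and 2 had an unadjusted p under 0.05. Lower, non-overlapping arrays were seen for 5 of the 26, beside 17.1% of all genes. Without vehicle array 3 the genes called lower were 2. RPL32 (-0.01) and RPS14 (-0.01) were among the closest to 0. Of 21 ribosome biogenesis genes 1 was higher and 2 lower, beside 13.3% and 10.0% of all genes. The lower count was 5 without vehicle array 3, 8 after quantile normalization and 1 without any other single array. FBL, which methylates ribosomal RNA, fell by 0.42 ± 0.08. The calls of NOP16 (0.51) and WDR12 (-0.33) were lost under 5 and 8, in that order, of the 9 settings that left out 1 array. In the respiratory chain and ATP synthase list 6 of 28 were lower and 0 higher (median -0.10), with between 1 and 4 lower when 1 array was left out and 10 after quantile normalization. SDHA, a subunit of succinate dehydrogenase, fell by 0.54 ± 0.11, and UQCRH (0.00) and COX5A (-0.01) did not pass.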

How the data were processed

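Total RNA of LNCaP cultures was hybridised, as biotin-labelled cRNA, to 9 arrays of 22215 probe sets. The authors deposited 1 linear intensity per probe set and array, made with RMA per the submitters' processing notes; the version is not given in the sources used here. Intensities were taken as log2 with a pseudocount of 0. Of the probe sets, 19724 were paired with 1 gene, 568 with several and 1923 with none listed. Each of 12165 genes was represented by its brightest probe set on average, and 4505 genes had more than 1.

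One model of the 9 arrays was fitted in R 4.3.3 with limma 3.58.1 (lmFit and eBayes, 6 residual degrees of freedom), the script having been tested on simulated data. P-values were adjusted by Benjamini-Hochberg over all genes at a threshold of 0.05. They measure the spread between these cultures, and the number of arrays limits the precision: the median SE was 0.13 (log2). The model took the arrays as unpaired. Deviations of same-numbered vehicle and combined arrays correlated at -0.25, 0.11 and -0.29. Deviations within a group are tied to each other through the group mean, so these correlations cannot decide whether replicate numbers pair the arrays.

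The comparison and the gene lists were chosen with earlier results of these data known. Named were the 15 largest rises and 15 largest falls without overlap, up to 4 called and 2 uncalled members per list, and genes fixed by name; 49 further genes were chosen after their values were seen. Alternatives changed the normalization, pseudocount, intensity filter, probe set choice, variance model and arrays kept. Promoters came from a RefSeq table (GRCh38.p14).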

Additional observations from a re-analysis of the deposited data

How the results depend on the processing

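Under 22 alternatives no named gene with a call reversed direction. Those that changed only the variance model, the replicate block, the genes tested or the androgen arrays left the fold change as it was. They could therefore not reverse it, and the named genes include those picked for the largest changes. Of 188 named genes past the threshold 142 kept the call under each of the 22 alternatives and 46 lost it under at least 1. Of those 46, 18 lost it when 1 array was left out, and 12 uncalled genes gained a call. With 1 array left out, the calls ran from 2285 to 2935, the higher ones from 1290 to 1558 against 1622 with all arrays, the lower ones from 931 to 1409 against 1218, and those of at least 2-fold from 539 to 643. Quantile normalization gave 3180 calls and the fit of the 6 compared arrays alone 2144. With replicate number as a block over the 9 arrays 2688 genes passed. With the replicate block within the compared groups 1099 passed, 682 higher and 417 lower. Whether the replicate numbers pair the arrays is not known. Under that block the higher members were 10 in the unfolded protein response list and 10 in the proteasome list, and 17 mitosis genes and 7 replication genes were lower. Leaving out vehicle array 3 and combined array 1 together was added after seeing the data. Signals near the lower quartile of intensity (40.7) limit what can be read of dim genes.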

Other observations

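Genes with several probe sets gave a limited check within the arrays. Of 678 genes with at least 2 called probe sets, 12 had calls in both directions. Genes with 1 called probe set and others that did not pass, such as HK2 and GDF15, are outside this count. It is therefore not a measure of agreement over all 4505 genes with more than 1 probe set. RPL5, of the large ribosomal subunit, had called probe sets at -0.42 and 1.64, and ZC3HAV1, an antiviral zinc finger protein, at -0.73 and 1.12. PAFAH1B1, which regulates dynein, had them at -0.45 and 0.92. Of 2491 probe sets paired with no gene or with several, 359 passed the threshold, 204 higher and 155 lower.

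The same deposited value stood on all 3 arrays of a group for 34 genes in the vehicle group, 77 in the androgen group and 35 in the combined group. Of these genes 3, 15 and 3, in that order, were among those that differed between combined and vehicle cultures.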
